A study of Homo sapiens with 12 samples.

Results

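The hypoxia-response and glycolysis genes described here are 35 named human genes, and 33 of them were measured as genes of their own among the 18417 genes of the array table. They were taken by name and by role: 12 genes known as targets of the hypoxia-inducible factors (HIF), 2 HIF alpha subunits, 2 glucose transporters, 16 glycolytic enzymes and 3 kinases that set the flow of glucose carbon. Where several array features named a gene alone, the feature with the highest mean over the 12 arrays was kept. CA9, a carbonic anhydrase and HIF target, had no feature named for it alone, and every feature of PGAM1, a phosphoglycerate mutase, was shared with PGAM4.

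The arrays came from MDA-MB-231, an established line of human triple-negative breast cancer cells. TRAIL is a ligand of the tumour necrosis factor family that can start apoptosis through death receptors. The 4 groups of 3 arrays were parental cells given TRAIL at 100 ng/ml for 2 h, untreated parental cells, TTR cells (a derivative treated to resistance) given the same TRAIL, and untreated TTR cells. The labels call the untreated parental samples a baseline before treatment, so in parental cells TRAIL and the 2 h that passed cannot be told apart. No time is given for the untreated TTR samples, so an untreated 2 h control is not documented in that line either. Nothing in the labels says that the 3 samples of a group were separate cultures, so the p-values below measure the spread between these samples, which may be technical. Nor do they say how TTR cells were derived or whether they are a clone, and the sample descriptions carry a tag that differs between the lines and is not explained. The tag and the line cannot be told apart. The descriptions also carry a code that same-numbered samples of all groups share, with 1 digit missing in 1 sample, so each replicate number was also fitted as a block, among all 12 arrays and among only the 2 groups compared, and the adjusted p is given where a block changed a call.

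In cells with enough oxygen, prolyl hydroxylases of the EGLN family mark the HIF alpha subunits, and the VHL ubiquitin ligase then has them degraded. When oxygen is short the alpha subunits persist, pair with ARNT and bind a short core sequence in DNA near genes for glucose uptake, glycolysis, mitophagy and blood vessel growth. Glycolysis turns glucose into pyruvate, and in many tumour lines, MDA-MB-231 included, much of that pyruvate becomes lactate even with oxygen present. HIF activity is set largely at the level of the alpha protein, which these RNA arrays do not measure.

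The HIF core reads ACGTG or GCGTG, and the stretch just before a gene's start is one place where it can be looked for. The 6 windows below belong to ADM and ANKRD37, which rose furthest with TRAIL, P4HA1 and PGK1, which fell furthest, BNIP3, another HIF target that fell, and ALDOC, which separated the lines. Each holds the 250 bases before the start in RefSeq (build GRCh38.p14), printed 5′ to 3′ on the gene's strand. Capitals mark every match to either core on either strand, so that CACGT and CACGC are the same cores read from the other strand, and overlapping matches run together.
ADM, chr11:10304823-10305072, plus strand: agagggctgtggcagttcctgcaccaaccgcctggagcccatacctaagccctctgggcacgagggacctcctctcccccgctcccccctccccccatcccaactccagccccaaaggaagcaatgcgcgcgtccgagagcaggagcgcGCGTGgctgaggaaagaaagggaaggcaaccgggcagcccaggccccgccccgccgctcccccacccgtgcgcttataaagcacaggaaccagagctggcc
ANKRD37, chr4:185396591-185396840, plus strand: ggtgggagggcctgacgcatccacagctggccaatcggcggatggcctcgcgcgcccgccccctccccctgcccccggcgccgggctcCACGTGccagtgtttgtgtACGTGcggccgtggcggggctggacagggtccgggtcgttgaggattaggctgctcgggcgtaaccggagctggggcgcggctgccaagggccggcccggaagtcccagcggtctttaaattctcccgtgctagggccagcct
P4HA1, chr10:73096867-73097116, minus strand: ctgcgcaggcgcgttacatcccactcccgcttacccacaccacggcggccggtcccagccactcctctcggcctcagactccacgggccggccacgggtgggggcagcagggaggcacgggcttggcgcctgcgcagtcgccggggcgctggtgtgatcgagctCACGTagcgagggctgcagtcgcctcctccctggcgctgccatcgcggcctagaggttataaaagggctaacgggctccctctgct
PGK1, chrX:78103998-78104247, plus strand: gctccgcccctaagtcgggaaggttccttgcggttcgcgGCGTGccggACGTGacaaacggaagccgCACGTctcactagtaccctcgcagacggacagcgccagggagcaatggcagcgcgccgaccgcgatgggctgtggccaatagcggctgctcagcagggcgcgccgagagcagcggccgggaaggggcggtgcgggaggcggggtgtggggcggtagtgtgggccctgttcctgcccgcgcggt
BNIP3, chr10:131981924-131982173, minus strand: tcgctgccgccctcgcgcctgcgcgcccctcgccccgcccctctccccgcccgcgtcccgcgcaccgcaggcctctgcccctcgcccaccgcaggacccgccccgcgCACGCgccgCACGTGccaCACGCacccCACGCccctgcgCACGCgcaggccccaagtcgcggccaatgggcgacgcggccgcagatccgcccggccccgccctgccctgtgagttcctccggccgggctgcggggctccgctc
ALDOC, chr17:28576896-28577145, minus strand: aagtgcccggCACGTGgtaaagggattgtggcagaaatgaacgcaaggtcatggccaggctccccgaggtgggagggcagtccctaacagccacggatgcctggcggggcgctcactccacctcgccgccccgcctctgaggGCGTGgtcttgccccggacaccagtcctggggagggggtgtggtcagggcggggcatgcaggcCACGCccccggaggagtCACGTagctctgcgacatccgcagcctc

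A core was found in 32 of the 53 windows of member genes (60.4%), against 15172 of all 35116 windows of the same length (43.2%). Counted by itself, ACGTG stood in 37.7% of the members' windows and in 18.5% of all windows, and GCGTG in 34.0% of the members' windows and 32.2% of all. The palindrome TGACGTCA, which contains ACGTC but neither core, was in 1.89% of the members' windows and 1.65% of all. TGANTCA, with N any base, is a looser pattern than the site of AP-1 factors. It was in 7.55% of the members' windows and 6.57% of all. By gene, 25 of the 29 members with a RefSeq entry held a core in at least 1 window, and BNIP3L, NDRG1, SLC2A3 and VEGFA had no entry in the table used. By the direction of change described next, 4 of 5 members that rose with TRAIL in parental cells held a core, as did 15 of 18 that fell and 6 of 6 that did not pass the test. No such count by gene was made over all genes. A gene with several starts has several windows, so these counts by gene cannot be set against the 43.2% by window. A match is a description of letters in this window and not a measured binding site.

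Values are log2 RMA intensities, and differences between groups are log2 changes from limma, with the standard error (SE) and a Benjamini-Hochberg p adjusted over all 18417 genes. A gene was counted as changed where that adjusted p was under 0.05. The TRAIL-treated parental arrays stood apart from the rest: they correlated with arrays of other groups at 0.921 to 0.963 over all features, whereas other arrays of different groups correlated at 0.984 to 0.992 and arrays of the same group at 0.989 to 0.995. Their medians over all features were 4.58 to 4.61, against 4.29 to 4.31 in untreated parental cells, and they were 4.38 to 4.40 in TRAIL-treated TTR cells, against 4.24 to 4.30 in untreated TTR cells. RMA keeps no record of total RNA, so a change here is set against all other genes on the same array, and fewer cells of a type cannot be told apart from less RNA per cell. The 6 markers of mesenchymal breast cancer cells averaged 8.03 to 11.5, so the markers of the labelled cell type were present. The 7 luminal breast markers averaged 2.51 to 8.06, with KRT19 the highest, and blood, endothelial and fibroblast markers averaged 2.27 to 5.45. TRAIL changed 5 of 6 mesenchymal, 3 of 7 luminal, 2 of 4 blood and 3 of 5 endothelial or fibroblast markers in parental cells and none of them in TTR cells. Over all genes 28.9% rose and 29.9% fell with TRAIL in parental cells, and 3.27% rose and 2.55% fell in TTR cells. These markers did not all differ in one direction: with TRAIL in parental cells VIM was at 11.7 to 11.9, against 11.2 to 11.5 untreated, and COL1A1 at 5.85 to 5.96, against 5.17 to 5.34, while PECAM1 was at 3.56 to 3.94, against 4.49 to 4.98. FOXA1 was at 4.40 to 4.52 with TRAIL, against 3.54 to 3.87 untreated, and EPCAM at 3.78 to 4.09, against 4.59 to 4.85. Summed over its 6 genes, the mesenchymal list stood at 60.2 to 61.0 in TRAIL-treated parental cells, against 62.9 to 64.0 in untreated parental cells. The luminal sum was 30.7 to 31.1 in TRAIL-treated parental cells, against 30.3 to 30.6 in untreated parental cells. The blood sum was 13.9 to 15.0 with TRAIL, against 13.7 to 14.3 without it, and the endothelial and fibroblast sum 20.1 to 20.7 with TRAIL, against 20.0 to 20.6 without it. In TTR cells the mesenchymal sum was 64.4 to 65.2 with TRAIL, against 63.4 to 65.4 untreated, and the luminal sum 29.9 to 30.5, against 29.6 to 31.3. The blood sums of treated and untreated TTR cells overlapped as well. The endothelial and fibroblast sum there was 19.0 to 19.4 with TRAIL, against 18.8 to 19.3 untreated, and lay below that of parental cells in both conditions with no overlap. The part of these shifts in the results was not tested.

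**Figure D1:**
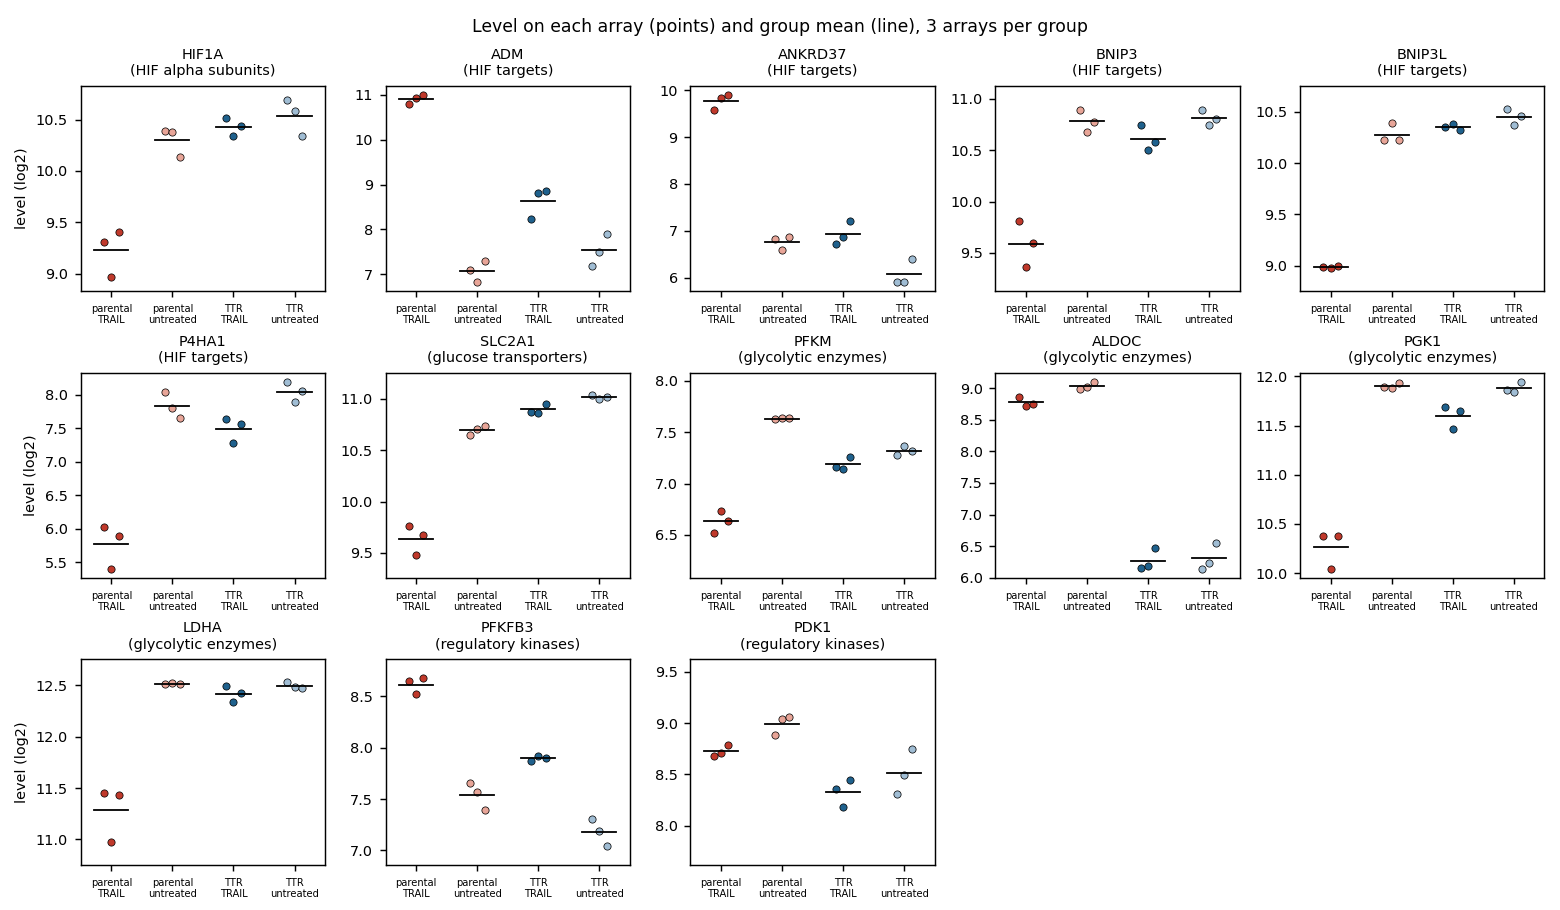
Log2 RMA level (vertical axis) of 13 members, 1 panel a gene, with the groups along the horizontal axis. Each point is 1 array and each bar the mean of 3 arrays; ADM, ANKRD37 and PFKFB3 are highest in TRAIL-treated parental cells, most of the others are lowest there, and ALDOC separates the lines.

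TRAIL in parental cells lowered most of these genes and raised a few of them sharply. Of the 33 members measured, 6 rose and 20 fell, and 7 did not pass the test. Over all genes 28.9% rose and 29.9% fell, so the share of members that rose (18.2%) was below the background and the share that fell (60.6%) above it. Nearly all members, 31 of 33, belong to the third of genes with the highest mean level, in which 18.4% of genes rose and 62.4% fell. Beside those 6139 genes, the members' counts were near the background in both directions. Those genes are not matched to the members by level. The members' mean levels ran from percentile 60.6 (PFKFB4) to 100 (GAPDH). The median change of the members was −0.46, against 0.05 over all genes and −0.58 over the third of genes with the highest mean. The array median itself rose by 0.29. Relative to it the members' median was −0.75, with 4 members higher and 24 lower, where 2328 of all genes were higher and 8608 lower. The upper quartile over all features did not rise: it was 6.54 to 6.59 with TRAIL, against 6.65 to 6.69 untreated. Setting array medians equal thus lowers genes of high level, most members among them, by a shift not seen at the upper quartile. Calls gained or lost on that scale in TRAIL-treated parental cells carry this limit. After quantile normalization the members' median was −0.26, with 7 members higher and 17 lower.

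Of the 11 HIF targets measured, 3 rose, 6 fell and 2 did not pass the test in parental cells, and after quantile normalization 4 rose and 5 fell. On the deposited scale 27.3% were higher and 54.5% lower, against 28.9% and 29.9% of all genes and 18.4% and 62.4% of the third of genes with the highest mean. ADM and ANKRD37 rose furthest. ADM encodes adrenomedullin, a secreted peptide that widens blood vessels. Its level was 10.80, 10.93 and 10.99 in TRAIL-treated parental cells, against 7.09, 6.83 and 7.29 in untreated parental cells. In TTR cells it was 8.24, 8.80 and 8.86 with TRAIL, against 7.20, 7.49 and 7.91 untreated. In each line all treated arrays lay above all untreated ones, and the treated parental arrays lay above every other array. The change was 3.84 ± 0.18 in parental cells (SE, 14.3-fold, adjusted p = 5.74e-11) and 1.10 ± 0.18 in TTR cells (2.15-fold, adjusted p = 0.00141).

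ANKRD37 encodes an ankyrin repeat protein and is a known HIF-1 target. It stood at 9.58, 9.84 and 9.89 in TRAIL-treated parental cells, against 6.83, 6.59 and 6.88 in untreated parental cells. TTR cells had 6.73, 6.86 and 7.22 with TRAIL, against 5.92, 5.92 and 6.41 without it. The treated and untreated arrays of each line did not overlap, and the treated TTR arrays lay close to the level of untreated parental cells. TRAIL raised it by 3.01 ± 0.15 in parental cells (8.04-fold, adjusted p = 1.34e-10) and by 0.86 ± 0.15 in TTR cells (1.81-fold, adjusted p = 0.00293). Its window, printed above, holds 3 ACGTG matches in 2 runs, and that of ADM a single GCGTG.

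EGLN3, a HIF-induced prolyl hydroxylase, was the other HIF target that rose in parental cells, by 0.57 ± 0.15 (adjusted p = 0.00397). With array medians set equal its change was 0.28 and no longer passed (adjusted p = 0.125). EGLN1, the main oxygen-sensing hydroxylase, stood at 7.99, 7.83 and 7.23 in TRAIL-treated parental cells, against 7.55, 7.36 and 7.57 in untreated parental cells. Treated array 3 was the lowest of these 6. The change was 0.19 ± 0.15 and missed the threshold (adjusted p = 0.304), which it passed at 0.41 without that array (adjusted p = 0.00435) and at 0.44 after quantile normalization (adjusted p = 0.0245). VEGFA, the vascular growth factor that is among the best-known HIF targets, changed by −0.05 ± 0.15 (adjusted p = 0.798).

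The other 6 measured HIF targets fell in TRAIL-treated parental cells. P4HA1, the catalytic subunit of collagen prolyl 4-hydroxylase, showed the lowest change of all members. It stood at 6.02, 5.41 and 5.90 in TRAIL-treated parental cells, against 8.05, 7.80 and 7.66 in untreated parental cells, a change of −2.06 ± 0.15 (4.17-fold lower, adjusted p = 7.39e-09). With TRAIL, TTR cells had 7.63, 7.28 and 7.57, against 8.19, 7.89 and 8.05 untreated. These TTR groups did not overlap either, and the change there was −0.55 ± 0.15 (adjusted p = 0.0459). That call was lost when any 1 of the 6 TTR arrays was left out, treated or untreated, at changes of −0.63 to −0.45 and adjusted p between 0.0761 and 0.206, and also after quantile normalization (adjusted p = 0.0744). P4HA2, a second such subunit, fell by 0.74 ± 0.10 in parental cells (adjusted p = 1.22e-05).

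BNIP3 and BNIP3L encode related outer mitochondrial membrane proteins that mark mitochondria for autophagy. BNIP3 stood at 9.81, 9.36 and 9.60 in TRAIL-treated parental cells, against 10.89, 10.68 and 10.78 in untreated parental cells, and changed by −1.19 ± 0.12 (adjusted p = 1.72e-07). In TTR cells it was 10.75, 10.50 and 10.58 with TRAIL, against 10.89, 10.74 and 10.81 untreated, and these ranges overlapped. The RefSeq table names 46 pseudogenes after BNIP3, so its signal may include other copies. BNIP3L stood at 8.98, 8.98 and 9.00 in TRAIL-treated parental cells, against 10.22, 10.38 and 10.23 in untreated parental cells, with a change of −1.29 ± 0.09 (adjusted p = 3.06e-09). TTR cells had 10.35, 10.38 and 10.32 with TRAIL, against 10.53, 10.37 and 10.45 untreated, and overlapped. In neither gene did the change in TTR cells pass the test, at −0.20 ± 0.12 for BNIP3 and −0.10 ± 0.09 for BNIP3L.

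NDRG1, a stress-induced gene linked to growth arrest, fell by 0.57 ± 0.11 in parental cells (adjusted p = 2.37e-04). KDM3A, a histone demethylase, fell by 0.24 ± 0.10 (adjusted p = 0.0448). The KDM3A call was lost without untreated parental array 1 or 2 or treated parental array 1 or 2, at changes of −0.24 to −0.18 and adjusted p between 0.0721 and 0.178. It was also lost after quantile normalization (adjusted p = 0.146) and with the replicate block among parental arrays alone (adjusted p = 0.0974).

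Of the 2 alpha subunits, HIF1A fell at the RNA level. It stood at 9.31, 8.96 and 9.40 in TRAIL-treated parental cells, against 10.38, 10.38 and 10.14 in untreated parental cells. TTR cells had 10.51, 10.34 and 10.44 with TRAIL, against 10.69, 10.58 and 10.34 untreated. The treated parental arrays lay below all other arrays, and the TTR groups overlapped. The change was −1.08 ± 0.13 in parental cells (adjusted p = 1.58e-06) and −0.11 ± 0.13 in TTR cells (adjusted p = 0.703). EPAS1, which encodes HIF-2 alpha, changed by −0.16 ± 0.13 in parental cells (adjusted p = 0.317), and by −0.45 relative to the array median, which passed (adjusted p = 0.00721).

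The glucose transporters moved in opposite directions in parental cells. SLC2A1 encodes GLUT1, the main basal glucose transporter of many tumours. It stood at 9.76, 9.48 and 9.67 in TRAIL-treated parental cells, against 10.64, 10.71 and 10.73 in untreated parental cells, and changed by −1.06 ± 0.09 (adjusted p = 5.54e-08). TTR cells had 10.88, 10.86 and 10.95 with TRAIL, against 11.03, 11.00 and 11.02 untreated. Those groups did not overlap, but the change of −0.12 ± 0.09 did not pass (adjusted p = 0.53). SLC2A3, which encodes the high-affinity transporter GLUT3, was at 7.93, 7.54 and 7.77 in TRAIL-treated parental cells, against 6.92, 7.12 and 7.01 in untreated parental cells, and rose by 0.73 ± 0.15 (adjusted p = 6.14e-04). Its close copy SLC2A14 and 3 pseudogenes named after it leave the source of that signal uncertain. Other members have pseudogenes named after them too, among them LDHA with 6, PKM with 5, and ENO1 and TPI1 with 4 each. Their signal may likewise include other copies.

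Glycolytic enzymes mostly fell in TRAIL-treated parental cells: 12 of the 15 measured fell, 1 rose and 2 did not pass the test. That is 80% lower, where 29.9% of all genes and 62.4% of the 6139 genes with the highest mean fell. All 15 are among those genes. With array medians set equal 13 fell and none rose, and after quantile normalization 10 fell and 1 rose. The median of the 15 changes was −0.50 and their range −1.63 to 0.32. Over the 6139 genes with the highest mean the median change was −0.58. With array medians set equal the enzyme median was −0.79, against −0.87 for those genes. After quantile normalization it was −0.36, against −0.40. By the median, the enzymes fell no further than these 6139 genes, although a larger share of the enzymes was called lower, 80% against 62.4%. These genes are not a background matched by level for the enzymes. By mean level, TPI1, GAPDH, PGK1, ENO1, PKM and LDHA stood at percentiles 99.6 to 100, and the lowest enzyme, HK1, at 73.6. Whether the enzymes fell further than genes of their own level was not tested.

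PGK1 and LDHA fell furthest among the enzymes. PGK1, phosphoglycerate kinase, carries out the first step of the pathway that yields ATP. It stood at 10.38, 10.05 and 10.37 in TRAIL-treated parental cells, against 11.89, 11.88 and 11.94 in untreated parental cells, with a change of −1.63 ± 0.11 (3.11-fold lower, adjusted p = 1.64e-09). TTR cells had 11.68, 11.46 and 11.65 with TRAIL, against 11.86, 11.84 and 11.94 untreated. The TTR groups did not overlap, yet the change of −0.28 ± 0.11 did not pass (adjusted p = 0.13), and it did at −0.39 relative to the array median (adjusted p = 0.0272).

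LDHA encodes the lactate dehydrogenase subunit that favours the making of lactate. Its level was 11.46, 10.97 and 11.43 in TRAIL-treated parental cells, against 12.51, 12.53 and 12.51 in untreated parental cells, and it fell by 1.23 ± 0.12 (2.35-fold, adjusted p = 1.09e-07). TTR cells had 12.49, 12.33 and 12.42 with TRAIL, against 12.53, 12.48 and 12.47 untreated, and overlapped. PFKM, the muscle form of phosphofructokinase, the committed step of glycolysis, was at 6.52, 6.74 and 6.64 in TRAIL-treated parental cells, against 7.63, 7.63 and 7.64 in untreated parental cells. It fell by 1.00 ± 0.09 (adjusted p = 6.00e-08), below every other array. In TTR cells PFKM was at 7.16, 7.15 and 7.26 with TRAIL, against 7.28, 7.37 and 7.32 untreated, a change of −0.13 ± 0.09 that did not pass (adjusted p = 0.446), although the arrays did not overlap.

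The remaining enzymes moved less. HK1, which phosphorylates glucose on entry, fell by 0.88 ± 0.11 (adjusted p = 2.56e-06). PKM, the last ATP-yielding step, fell by 0.73 ± 0.10, and the enolase ENO1 by 0.69 ± 0.09. The aldolase ALDOA fell by 0.62 ± 0.09 and the platelet phosphofructokinase PFKP by 0.46 ± 0.10. PFKL, the liver phosphofructokinase, was the only enzyme counted higher, at 0.32 ± 0.10 (adjusted p = 0.0154). Its change was 0.03 with array medians set equal (adjusted p = 0.847), and without untreated parental array 3 it was 0.25 (adjusted p = 0.0746).

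Several smaller falls lost their call when an array was left out, mostly at a similar size of change. The enolase ENO2 changed by −0.50 ± 0.16 (adjusted p = 0.0117), at −0.42 without untreated parental array 1 (adjusted p = 0.0572), and at −0.29 without treated parental array 3 (adjusted p = 0.075), so its size depended on that last array. The hexokinase HK2 changed by −0.47 ± 0.17 (adjusted p = 0.0254), and without untreated parental array 1 or 2 or treated parental array 2 or 3 it was −0.45 to −0.37 (adjusted p 0.0677 to 0.112). Neither passed after quantile normalization (adjusted p = 0.15 for ENO2 and 0.315 for HK2). The triose phosphate isomerase TPI1 changed by −0.22 ± 0.09 (adjusted p = 0.0374), and lost its call without any 1 of the 6 parental arrays other than untreated array 2, at −0.23 to −0.18 (adjusted p 0.0526 to 0.138). A second TPI1 feature changed by 0.01 (adjusted p = 0.951 over every feature of the table). GAPDH, a common reference transcript with 65 pseudogenes named after it, changed by −0.22 ± 0.09 (adjusted p = 0.0414). Its call was lost without any 1 of the 6 parental arrays other than treated array 1, at −0.23 to −0.19 (adjusted p 0.0524 to 0.11). With the replicate block among parental arrays alone neither passed (adjusted p = 0.121 for TPI1 and 0.122 for GAPDH). GPI, the glucose phosphate isomerase (−0.04 ± 0.14), and ALDOC (−0.25 ± 0.12, adjusted p = 0.072) did not pass. ALDOC did at −0.55 relative to the array median (adjusted p = 7.15e-04) and with the replicate block (adjusted p = 0.0451).

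Of the 3 kinases that steer glucose carbon, 1 rose in parental cells and 2 did not pass. PFKFB3 makes fructose 2,6-bisphosphate, the strongest activator of phosphofructokinase. Its level was 8.64, 8.52 and 8.68 in TRAIL-treated parental cells, against 7.65, 7.57 and 7.39 in untreated parental cells, and it rose by 1.08 ± 0.10 (2.11-fold, adjusted p = 9.91e-08). In TTR cells it was 7.87, 7.91 and 7.90 with TRAIL, against 7.30, 7.19 and 7.04 untreated, a rise of 0.72 ± 0.10 (1.64-fold, adjusted p = 3.37e-04). Treated and untreated arrays were apart in both lines. PDK1, the kinase that shuts off pyruvate dehydrogenase, was at 8.68, 8.71 and 8.78 in TRAIL-treated parental cells, against 8.88, 9.04 and 9.06 in untreated parental cells. The change of −0.27 ± 0.11 did not pass (adjusted p = 0.0533). It passed with the replicate block (adjusted p = 0.0313), at −0.33 without untreated parental array 1 (adjusted p = 0.045) and at −0.56 relative to the array median (adjusted p = 4.36e-04). PFKFB4, a second kinase of the PFKFB family, changed by −0.17 ± 0.10 (adjusted p = 0.154), and by −0.46 relative to the array median, which passed (adjusted p = 5.05e-04).

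**Figure D2:**
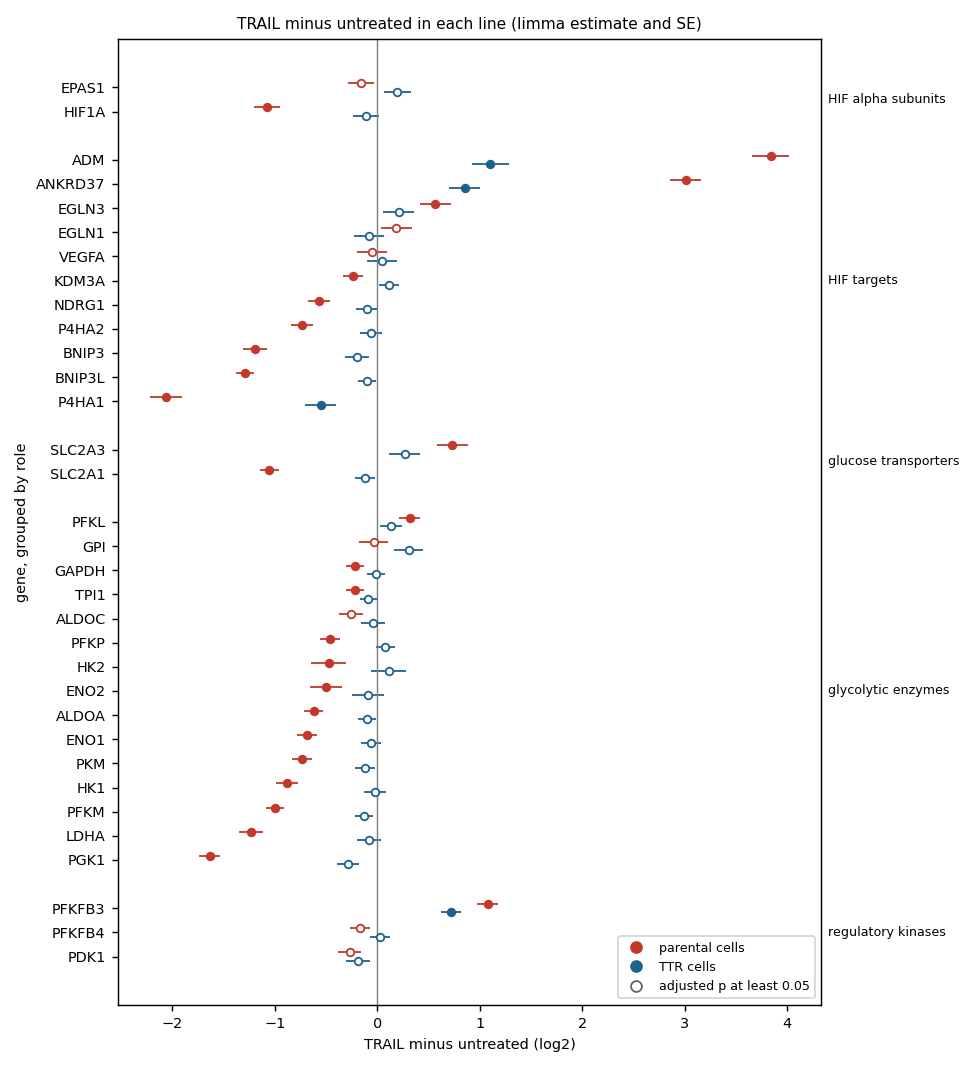
Change with TRAIL (horizontal axis, log2, limma estimate with SE) for each of the 33 measured members, grouped by role on the vertical axis, in parental and in TTR cells. Filled points passed an adjusted p of 0.05 and open points did not; 6 members rose and 20 fell in parental cells, while 3 rose and 1 fell in TTR cells.

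In TTR cells TRAIL raised 3 members, ADM, ANKRD37 and PFKFB3, and lowered 1, P4HA1, while 29 did not pass the test. Over all genes 3.27% rose and 2.55% fell, and in the third of genes with the highest mean 5.51% rose and 4.94% fell, against 9.09% and 3.03% of members. The array median rose by 0.11, and with array medians set equal the members split into 3 higher and 2 lower, with PGK1 added, while after quantile normalization 3 were higher and none lower. None of the 15 glycolytic enzymes passed on the deposited scale, and their changes ran from −0.28 to 0.31. The upper end was GPI, at 10.17, 9.96 and 9.77 in TRAIL-treated TTR cells, against 9.92, 9.72 and 9.33 in untreated TTR cells. GPI was higher with TRAIL in each same-numbered pair of arrays, and with the replicate block among TTR arrays alone the change of 0.31 passed (adjusted p = 0.0415, against 0.235 without the block). With the block among all 12 arrays the same number of members, 4, passed. The 3 members that rose in TTR cells were all among the 6 that rose in parental cells. The 2 comparisons share no arrays, but both come from 1 fit with a shared estimate of the spread. How many of all genes rose in both lines was not counted, and the members were chosen with results known. No conclusion is therefore drawn from this overlap.

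The difference between the TRAIL effects was tested directly as an interaction. It was above 0 for 15 members and below 0 for 2, and did not pass for 16. Over all genes 22.9% were above and 14.3% below, and in the third of genes with the highest mean 53.5% were above and 10.7% below, against 45.5% and 6.06% of members. After quantile normalization 13 members were above and 6 below, where 3937 of all genes were above and 2300 below. In the third of genes with the highest mean (6139 genes), 2704 were then above and 998 below. ADM and ANKRD37 were the 2 below 0, with a smaller rise in TTR cells: the interaction was −2.73 ± 0.25 for ADM (adjusted p = 1.21e-06) and −2.15 ± 0.21 for ANKRD37 (adjusted p = 2.00e-06). For P4HA1 the change was less negative in TTR cells by 1.51 ± 0.22 (adjusted p = 4.31e-05), and for PGK1 by 1.35 ± 0.15 (adjusted p = 4.42e-06). The interaction for PFKFB3 was −0.36 ± 0.14 and did not pass (adjusted p = 0.0572). It did without untreated parental array 1, treated parental array 2 or untreated TTR array 3, at adjusted p between 0.0321 and 0.0431, and after quantile normalization, at −0.60 (adjusted p = 0.00184). HK2 was added with the replicate block, at 0.59 (adjusted p = 0.0106). PFKFB3 was the 1 member that rose in both lines and whose rise was not shown to differ between them on the deposited scale.

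Untreated TTR cells differed from untreated parental cells in few members. Of the 33, SLC2A1 was higher and ALDOC, ANKRD37, PDK1, PFKFB3 and PFKM were lower. Over all genes 3.64% were higher and 3.47% lower, and in the third of genes with the highest mean 5.51% were higher and 6.06% lower, against 3.03% and 15.2% of members. Only ALDOC passed in every fit that left out 1 array: the number of members called was 1 to 5 in those fits.

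ALDOC, the aldolase isoform best known from brain, separated the lines. It stood at 6.14, 6.24 and 6.55 in untreated TTR cells, against 8.98, 9.03 and 9.10 in untreated parental cells. With TRAIL it was at 6.15, 6.18 and 6.47 in TTR cells, against 8.86, 8.73 and 8.76 in parental cells. Every TTR array lay below every parental array. The difference was −2.73 ± 0.12 untreated (6.62-fold lower in TTR cells, adjusted p = 6.29e-10) and −2.51 ± 0.12 with TRAIL (5.71-fold, adjusted p = 2.75e-10). ALDOA, the aldolase of muscle and most other tissues, differed by −0.13 ± 0.09 between untreated lines (adjusted p = 0.52). The interaction for ALDOC was 0.21 ± 0.17 and did not pass (adjusted p = 0.344).

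The other 5 differences were smaller, and each lost its call in 3 or more of the 6 fits that left out 1 untreated array, at a similar size of difference. ANKRD37 differed by −0.68 ± 0.15 (1.60-fold lower in TTR cells, adjusted p = 0.0105) with no overlap of arrays. Without untreated parental array 1 or 3 or untreated TTR array 2 it was −0.65 to −0.60 (adjusted p 0.0501 to 0.0637). PDK1 was at 8.31, 8.49 and 8.75 in untreated TTR cells, against 8.88, 9.04 and 9.06 in untreated parental cells, a difference of −0.48 ± 0.11 (adjusted p = 0.0169). Without untreated parental array 2 or 3 or untreated TTR array 1 or 2 the PDK1 difference was −0.46 to −0.37 (adjusted p 0.0662 to 0.0702). With TRAIL it was at 8.36, 8.18 and 8.44 in TTR cells, against 8.68, 8.71 and 8.78 in parental cells, and differed by −0.40 ± 0.11 (adjusted p = 0.00769), a call lost relative to the array median (−0.19, adjusted p = 0.175). PFKFB3 differed by −0.36 ± 0.10 (adjusted p = 0.0393) and PFKM by −0.31 ± 0.09 (adjusted p = 0.0454). SLC2A1 was higher by 0.32 ± 0.09 (adjusted p = 0.047). For PFKFB3 it was −0.36 to −0.29 (adjusted p 0.105 to 0.175) without untreated parental array 1 or 2 or untreated TTR array 2 or 3. PFKM and SLC2A1 each lost their call without any 1 of the 6 untreated arrays, at −0.33 to −0.29 for PFKM (adjusted p 0.0917 to 0.118) and 0.30 to 0.34 for SLC2A1 (adjusted p 0.0881 to 0.159). With the replicate block among untreated arrays alone both lost it too (adjusted p = 0.0646 for PFKM and 0.0567 for SLC2A1).

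ADM, EPAS1 and EGLN3 passed between the untreated lines only in some alternative fits. With the replicate block 8 members passed, ADM (adjusted p = 0.0437) and EPAS1 (adjusted p = 0.0493) being added; among untreated arrays alone the block added ADM (adjusted p = 0.0393) and EGLN3 (adjusted p = 0.0155). ADM was higher in TTR cells by 0.46 ± 0.18 (adjusted p = 0.157), and by 0.63 without untreated TTR array 1 (adjusted p = 0.0479). EPAS1 was higher by 0.42 ± 0.13 (adjusted p = 0.0672), and by 0.55 without untreated parental array 2 (adjusted p = 0.022). EGLN3 differed by −0.44 ± 0.15 (adjusted p = 0.102), and by −0.56 without untreated TTR array 1 (adjusted p = 0.0402).

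With TRAIL in both lines, 19 members were higher and 6 lower in TTR cells than in parental cells. Over all genes 28% were higher and 26.4% lower, and in the third of genes with the highest mean 59.4% were higher and 17.2% lower, against 57.6% and 18.2% of members. The split was 22 higher and 5 lower with array medians set equal, and 15 higher and 9 lower after quantile normalization. This comparison shares its arrays with those above, so its values are not independent of them. ANKRD37 (−2.83 ± 0.15), ALDOC (−2.51 ± 0.12) and ADM (−2.27 ± 0.18) were furthest below parental cells, followed by EGLN3 (−0.79 ± 0.15), PFKFB3 (−0.72 ± 0.10) and PDK1 (−0.40 ± 0.11). P4HA1 was furthest above them, by 1.72 ± 0.15, then BNIP3L (1.36 ± 0.09), PGK1 (1.33 ± 0.11), SLC2A1 (1.26 ± 0.09) and HIF1A (1.20 ± 0.13). EPAS1 was at 6.79, 6.97 and 7.01 in TRAIL-treated TTR cells, against 5.99, 6.13 and 6.34 in TRAIL-treated parental cells, and was higher by 0.77 ± 0.13 (adjusted p = 9.62e-05). The smallest calls were lost when an array was left out. GAPDH (0.24 ± 0.09) was lost without treated parental array 3 or treated TTR array 1 or 2, at 0.20 to 0.24 (adjusted p 0.0687 to 0.112), and with the replicate block among treated arrays alone (adjusted p = 0.0809). KDM3A (0.29 ± 0.10) was lost without treated parental array 2 or treated TTR array 2 or 3, at 0.25 to 0.28 (adjusted p 0.0546 to 0.0795). ENO2 (0.39 ± 0.16) was 0.59 without treated parental array 1 (adjusted p = 0.00179) and 0.18 without treated parental array 3 (adjusted p = 0.273). Its call was also lost without treated parental array 2 or any 1 of the treated TTR arrays, at 0.37 to 0.42 (adjusted p 0.0626 to 0.108). After quantile normalization KDM3A (adjusted p = 0.128), ENO2 (adjusted p = 0.373), NDRG1 (adjusted p = 0.121) and ALDOA (adjusted p = 0.0827) did not pass. EGLN1 gained a call without treated parental array 3, at −0.40 (adjusted p = 0.00589), and HK2 gained one without treated parental array 1 or treated TTR array 3, at 0.55 to 0.56 (adjusted p = 0.0123 to 0.0149), and with the replicate block among all arrays, at 0.39 (adjusted p = 0.0111), or among treated arrays alone (adjusted p = 0.0239).

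**Figure D3:**
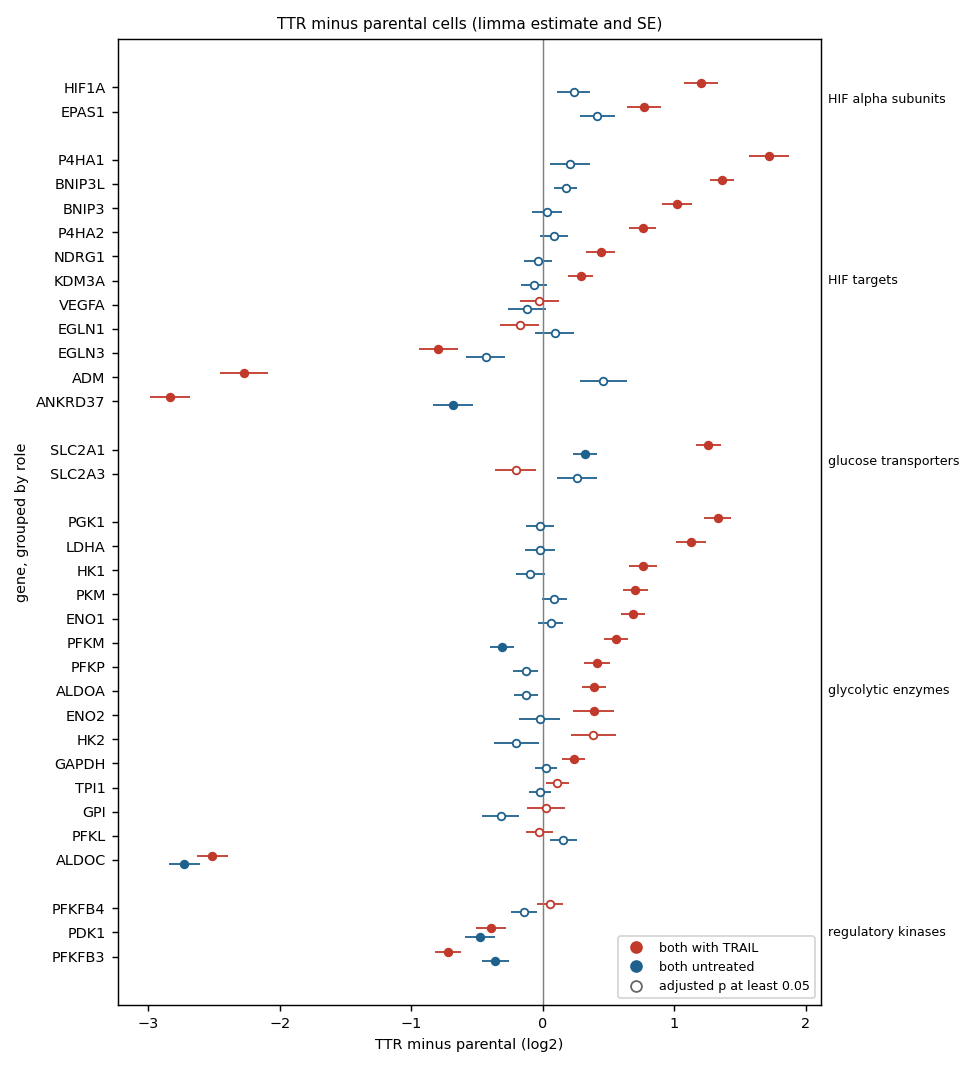
TTR minus parental level (horizontal axis, log2, limma estimate with SE) of the 33 measured members, grouped by role on the vertical axis, with TRAIL and untreated. Filled points passed an adjusted p of 0.05 and open points did not; ALDOC lies near −2.7 untreated and −2.5 with TRAIL, while most other members lie near 0 untreated and above 0 with TRAIL.

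The HIF targets and the glycolytic enzymes were set side by side over the groups. These lists were split by role and not by dependence on HIF, which also acts near genes for glycolysis. The comparison therefore does not set HIF-driven genes against genes free of HIF. In each array the median deviation from the untreated parental mean was taken over the 11 HIF targets and over the 15 enzymes. In TRAIL-treated parental cells the HIF target median was −0.23, −0.30 and −0.29, and the enzyme median was −0.39, −0.68 and −0.68. The enzyme median was the lower of the 2 in all 3 arrays. In TRAIL-treated TTR cells the HIF target median was −0.01, −0.08 and 0.04, and the enzyme median −0.03, −0.12 and −0.18. Untreated TTR cells had 0.12, −0.09 and 0.02 for the HIF targets and 0.01, −0.04 and −0.17 for the enzymes, and untreated parental cells, from which deviations were taken, had −0.05 to 0.06 over both groups of genes. The median change with TRAIL in parental cells was −0.24 for HIF targets and −0.50 for enzymes, a difference of 0.26. Over the third of genes with the highest mean the median change was −0.58. Between arrays of a group the difference varied by 0.11 (SD, pooled over the 4 groups). That SD does not measure the spread between genes, so it cannot show whether the 2 groups of genes differ. The difference was 0.45 without treated parental array 1 and no less than 0.17 without any other array. In TTR cells both medians were −0.06. The changes of the HIF targets in parental cells were spread far wider, from −2.06 to 3.84, than those of the enzymes, from −1.63 to 0.32. No test was run on these medians, since the members were chosen with results known.

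**Figure D4:**
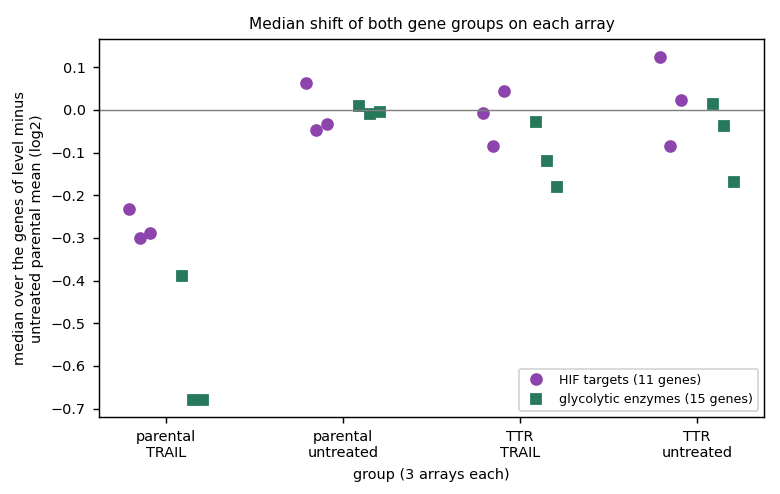
Median deviation from the untreated parental mean (vertical axis, log2) of the 11 measured HIF targets and the 15 measured glycolytic enzymes in each of the 12 arrays, by group on the horizontal axis. Each point is 1 array; the enzymes lie at −0.39 to −0.68 and the HIF targets at −0.23 to −0.30 in TRAIL-treated parental cells, and both lie between −0.18 and 0.12 elsewhere.

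Other genes of the pathway, listed by function, were counted in the same way. Of 16 further regulators of HIF, 15 were measured, and 5 rose and 5 fell with TRAIL in parental cells, near the background of 28.9% and 29.9%. The split was 3 and 6 with array medians set equal. CUL2, the cullin scaffold of the VHL ligase, averaged 6.15 ± 0.28 in TRAIL-treated parental cells, against 8.31 ± 0.13 in untreated parental cells (SD, n = 3 each), and changed by −2.16 ± 0.13 (SE, adjusted p = 6.19e-10). CITED2, a HIF-induced protein that competes with HIF for the coactivators p300 and CBP, averaged 11.3 ± 0.16, against 8.98 ± 0.31, and rose by 2.33 ± 0.16 (adjusted p = 3.10e-09). In TTR cells 1 of the 15 passed: VHL, the substrate-binding subunit of that ligase, rose by 0.70 ± 0.16 (adjusted p = 0.0148), and with array medians set equal 2 others fell.

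Of 18 further HIF targets, 16 were measured, and 4 rose and 10 fell in parental cells. That is 25% and 62.5%, against 28.9% and 29.9% of all genes. Of the 6139 genes with the highest mean, 18.4% rose and 62.4% fell. Those genes are not a background matched by level for this list. P4HA2, a member outside them, averaged 6.18 over the 12 arrays (percentile 64.3). RORA, STC2, ANGPTL4 and KDM4B averaged 2.96, 3.02, 4.62 and 5.33 in untreated parental cells. With TRAIL they averaged 3.15, 3.27, 5.55 and 6.06 there. RORA did not pass (adjusted p = 0.184). STC2 lost its call with array medians set equal (adjusted p = 0.739) and after quantile normalization (adjusted p = 0.615). Genes of modest level did not all rise: CA12 averaged 5.35 with TRAIL, against 6.36 untreated, and FAM162A 5.66, against 6.39. DDIT4, an inhibitor of mTORC1 signalling that many stresses induce, averaged 10.1 ± 0.13 in TRAIL-treated parental cells, against 8.15 ± 0.10 in untreated parental cells, and rose by 1.99 ± 0.12 (adjusted p = 1.15e-09). INSIG2, which holds back sterol synthesis, averaged 4.74 ± 0.03, against 6.43 ± 0.09, and changed by −1.68 ± 0.12 (adjusted p = 4.38e-09). The median of these 16 changes was −0.68, against 0.05 over all genes and −0.58 over the third of genes with the highest mean. In TTR cells none of the 16 passed, where 3.27% of all genes rose and 2.55% fell, and with array medians set equal 3 fell.

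Of 21 further genes of glycolysis and pyruvate use, 18 were measured, and 5 rose and 10 fell in parental cells, or 2 and 12 with array medians set equal. On the deposited scale 27.8% rose and 55.6% fell, against 28.9% and 29.9% of all genes. Of the 6139 genes with the highest mean, 18.4% rose and 62.4% fell. Those genes are not a background matched by level for this list either. HK3, LDHC, PFKFB1 and ENO3 averaged 3.26, 2.14, 2.61 and 3.73 in untreated parental cells. With TRAIL they averaged 3.58, 2.31, 2.57 and 4.90 there. TIGAR, a phosphatase that lowers fructose 2,6-bisphosphate, averaged 4.43 ± 0.22 in TRAIL-treated parental cells, against 5.98 ± 0.13 in untreated parental cells, and changed by −1.55 ± 0.12 (adjusted p = 8.76e-09). PDHA1, the catalytic subunit of pyruvate dehydrogenase, averaged 5.92 ± 0.30, against 7.59 ± 0.08, and changed by −1.67 ± 0.13 (adjusted p = 9.21e-09). The median of the 18 was −0.47, against 0.05 over all genes. In TTR cells none of the 18 passed on the deposited scale, while 4 fell with array medians set equal.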

How the data were processed

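The deposited log2 values are the authors' RMA output from Affymetrix Power Tools, per the submitters' processing notes. Its version, its settings and any genome build are not given in the labels or headers, and low levels may be background because no detection call was used. The table holds 33252 features: 19460 name 1 gene by the platform annotation, 1754 several and 12038 none. The highest-mean feature was kept for each of 18417 genes, and 19429 features matched a RefSeq gene. All 12 arrays entered 1 limma fit (limma 3.58.1, R 4.3.3) with a mean per group (8 residual and 7.87 prior degrees of freedom). It used eBayes and Benjamini-Hochberg adjustment. The fit was tried on simulated arrays in which a small share of genes changed, with independent noise and no shift of array medians. That setting differs from TRAIL in parental cells, so the trial cannot speak to that comparison. No arrays were identical. The members and lists were chosen with earlier results of these data known. Array values are given for members called with TRAIL in both lines, called between untreated lines, or changed by at least 1 (log2) between any groups; elsewhere at most 2 called genes with the smallest p per list and TRAIL comparison are named, and remaining members and values were named after they were seen. Same-numbered samples share a code in the labels whose meaning is not explained, and the deviations of same-numbered arrays correlated at 0.15 to 0.40 for TRAIL in TTR cells but not in every pair elsewhere (−0.03 to 0.37 between untreated lines), so the replicate number was fitted as a block beside the reported fit. The closing section gives the alternatives.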

Additional observations from a re-analysis of the deposited data

Results flagged for a closer look

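For 17 members the change with TRAIL differed between the lines by the interaction test (limma, adjusted p under 0.05), given here as the change in TTR cells minus that in parental cells on the log2 scale. Among HIF targets it was −2.73 for ADM, −2.15 for ANKRD37, 1.51 for P4HA1, 1.19 for BNIP3L, 0.99 for BNIP3, 0.67 for P4HA2 and 0.47 for NDRG1. Each of the last 5 fell in parental cells, and of these only P4HA1 also passed the test as lower in TTR cells. The first 2 rose less in TTR cells. HIF1A differed by 0.97 and SLC2A1 by 0.94. Among glycolytic enzymes it was 1.35 for PGK1, 1.15 for LDHA, 0.87 for PFKM, 0.86 for HK1, 0.63 for ENO1, 0.62 for PKM, 0.54 for PFKP and 0.52 for ALDOA, and all of these fell in parental cells. The NDRG1 call (adjusted p = 0.0221) was lost in 5 fits that left out 1 array, namely untreated parental array 1, treated parental array 2, untreated TTR array 2 and treated TTR arrays 1 and 3, at 0.41 to 0.45 (adjusted p 0.0506 to 0.0638). After quantile normalization NDRG1 was 0.25 (adjusted p = 0.232) and ALDOA 0.32 (adjusted p = 0.0579), and neither passed. Calls appeared in other such fits for EGLN1 (−0.49 without treated parental array 3), ENO2 (0.61 without treated parental array 1), SLC2A3 (−0.61 without untreated TTR array 2), HK2 (0.73 to 0.76 without treated parental array 1, untreated TTR array 1 or treated TTR array 3) and KDM3A (0.41 to 0.42 without untreated parental array 3 or untreated TTR array 1). Groups of 3 arrays were too small to look for single outlying arrays.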

How the results depend on the processing

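No member turned direction past the threshold under any alternative: over all members, comparisons and alternatives, 2645 values kept their side of the threshold, 83 gained a call and 110 lost one. The number of members called was within 1.5 times the reported one for every comparison and alternative except the untreated lines, where 6 members became 3 with every feature tested, 3 with only those 2 groups fitted, and 1 to 5 with 1 array left out. The difference between HIF target and enzyme medians with TRAIL in parental cells was 0.17 to 0.45 with 1 array left out. Fits with the replicate block called 28 members for TRAIL in parental cells, 4 for TRAIL in TTR cells, 8 between untreated lines, 26 between treated lines and 18 for the interaction. Over all 12 arrays the block lost no member's call and changed none beyond those named above. The block among only the 2 groups compared, a fit added after seeing the data, called 23 members for TRAIL in parental cells (KDM3A, TPI1 and GAPDH lost), 5 for TRAIL in TTR cells (GPI gained), 6 between untreated lines (PFKM and SLC2A1 lost, ADM and EGLN3 gained) and 25 between treated lines (GAPDH lost, HK2 gained). Over all genes, setting array medians equal gave 448 higher and 1943 lower for TRAIL in TTR cells, against 602 and 470 as deposited, 6839 and 2391 between treated lines, against 5164 and 4853, and 5410 and 1275 for the interaction, against 4224 and 2628. Precision is limited by 3 arrays a group, and low levels may be background.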

Other observations

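The 5 features shared by PGAM1 and PGAM4 changed by −1.30 to −1.38 with TRAIL in parental cells and by −0.20 to −0.23 in TTR cells. PGAM1 is the glycolytic phosphoglycerate mutase, and the arrays cannot tell it apart from PGAM4, so these values were left out of the counts above.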
